A study of Mus musculus with 5 samples.

Results

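The genes described here are 10 repressors that write, read or direct methylation of lysine 9 on histone H3 (H3K9) and build heterochromatin. They were taken by gene name, with earlier results of these data known. All 10 stand among the 23997 gene names of the expression table and among the 14698 genes tested. They comprise the corepressor Trim28 and the KRAB zinc finger protein Zfp57, the methyltransferases Setdb1, Suv39h1, Suv39h2, Ehmt1 (GLP) and Ehmt2 (G9a), and the HP1 proteins Cbx1 (HP1 beta), Cbx3 (HP1 gamma) and Cbx5 (HP1 alpha). The values come from RNA-seq of whole cortices of C57BL/6 mice at embryonic day 16 (E16). The 3 control embryos (libraries MG15, MG16 and MG17) are Uhrf1 +/- and the 2 conditional knockout (cKO) embryos (MG18 and MG19) are Uhrf1 -/-, and both groups carry Emx1-Cre, so that the controls are heterozygous for the deletion. The floxed part of Uhrf1 is a single exon, and transcripts of the remaining exons are still counted. Emx1-driven Cre acts in the dorsal telencephalon and leaves vessels, microglia and cells that migrate in from ventral regions unrecombined.

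Methylated H3K9 marks silent chromatin. KRAB zinc finger proteins such as Zfp57 bind particular DNA sequences and bring in Trim28, which recruits Setdb1 to trimethylate H3K9 over retroviral elements and imprinted loci. Suv39h1 and Suv39h2 trimethylate H3K9 at the repeats around centromeres, Ehmt1 and Ehmt2 work as a pair that places lower methylation states at silent genes, and HP1 proteins bind the methylated tail. Uhrf1 reads methylated H3K9 as well as hemimethylated DNA and so links this system to DNA methylation, and the comparison asks whether genes of this system are expressed differently when Uhrf1 is deleted in the cortex.

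Of the 10 genes only Suv39h2 was called in the cKO cortex, where its level was 1.98 times that of the controls (95% interval 1.48 to 2.65). The other 9, among them Trim28, Setdb1, Zfp57 and the HP1 genes, were not called in either direction. For 8 of these 9, all but Cbx3, the 95% intervals of the fold lay within 0.691 and 1.31, so that a change of 2-fold lies outside them. In the test across all genes (limma on log2(FPKM + 0.1), where FPKM is fragments per kilobase of transcript length after correction for library size), an adjusted p under 0.05 was reached upward by 1.1% of genes and downward by 0.163%. Among the members 1 was higher and 0 were lower, and 1 of 10 had an unadjusted p under 0.05, as did 11.5% of all genes tested (6.37% upward and 5.17% downward). None passed the thresholds named in the study, an unadjusted p under 0.05 and over 2-fold, applied here to the p and fold of limma and not to those of Cuffdiff, since Suv39h2 lay just under 2-fold. Of all genes 4.04% passed them (2.88% upward and 1.16% downward). In its own test the study lists Suv39h2 as upregulated in the cKO cortex at a postnatal stage. Its list for E16 was not among the sources used here. In 1 member, Suv39h2, both cKO libraries lay above all controls and in 1, Cbx1, below, so that 2 of 10 did not overlap, against 30.8% of all genes tested. The median log2 fold change of the members was -0.062, against -0.018 for all genes tested.

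**Figure D1:**
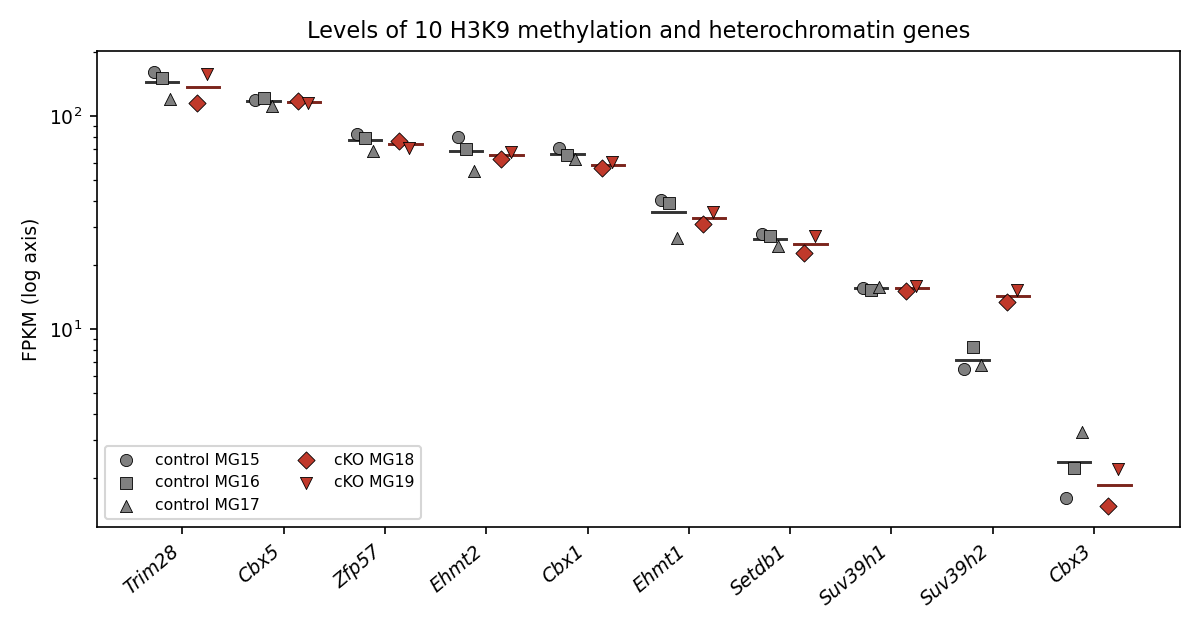
Levels of the 10 genes (horizontal axis, ordered by control mean) as FPKM on a log axis in the 3 control libraries (grey) and the 2 cKO libraries (red), with lines at the group means. Suv39h2 is the one gene whose cKO values (13.3 and 15.2) stand well apart from the controls (6.50 to 8.20), while Trim28 and Cbx5 lie highest in both groups. The level of Cbx3 is uncertain because transcripts of other genes share part of its sequence.

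The deleted gene, Uhrf1, measured 7.24, 13.2 and 13.0 FPKM in the controls, against 2.75 and 2.61 with the deletion (log2 change -1.97, SE 0.28, adjusted p = 0.00775, limma). Libraries of both sexes are found in both groups, with MG16 and MG19 female and the others male by their Y-linked transcripts. The depth, estimated only roughly from steps between low values, was near 44000000, 16000000 and 11000000 fragments in the controls MG15, MG16 and MG17. It was near 8700000 and 10000000 in the cKO libraries MG18 and MG19, both below the estimates of all controls. An estimate this rough cannot firmly order MG19 and the control MG17. The part of depth in the results was not tested. Markers of cortical neurons were high in all libraries (10 genes, summed FPKM 3623 to 4038 in controls and 3386 to 3581 in the cKO) and those of meninges and choroid plexus (4 genes) were low, at 1.96 to 2.60 FPKM in controls, and 4.58 and 7.56 in the cKO. The study calls the libraries of a group biological replicates. The p-values of limma rest on the spread between them combined with a variance prior drawn from all genes (residual df 3, prior df 6.23). The values are of bulk tissue, in which fewer cells of a type and less RNA per cell cannot be told apart.

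Suv39h2 and Suv39h1 encode the paralogous enzymes that place trimethylation at pericentromeric repeats, and in adult mice Suv39h2 is known for its restriction to the testis. Their start regions are shown because 1 of the pair passed the test and the other did not. Suv39h2 lies on chromosome 2 from 3455815 to 3475031 of GRCm38, on the minus strand, and Suv39h1 on the X chromosome from 8061171 to 8074760, also on the minus strand. The windows below, from RefSeq on GRCm38.p6, run from 250 bases before an annotated start to 50 after it, on the strand of the gene, with each CpG in capitals. The Suv39h2 window spans chr2:3474937-3475236, and Suv39h1 has 2 windows, the upstream one at chrX:8074711-8075010 and the downstream one at chrX:8074312-8074611.
Suv39h2: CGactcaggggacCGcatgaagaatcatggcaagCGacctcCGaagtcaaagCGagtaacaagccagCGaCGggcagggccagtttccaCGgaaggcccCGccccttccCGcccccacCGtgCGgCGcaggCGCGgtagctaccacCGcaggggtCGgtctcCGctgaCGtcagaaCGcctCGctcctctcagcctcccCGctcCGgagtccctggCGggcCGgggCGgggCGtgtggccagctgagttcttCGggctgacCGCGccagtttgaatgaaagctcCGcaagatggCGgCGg
Suv39h1 upstream: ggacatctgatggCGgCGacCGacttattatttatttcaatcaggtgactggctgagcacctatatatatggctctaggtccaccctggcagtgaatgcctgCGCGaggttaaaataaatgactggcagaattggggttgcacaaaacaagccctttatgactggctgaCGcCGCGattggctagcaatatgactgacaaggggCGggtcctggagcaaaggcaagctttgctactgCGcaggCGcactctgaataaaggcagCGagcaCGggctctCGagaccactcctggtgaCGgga
Suv39h1 downstream: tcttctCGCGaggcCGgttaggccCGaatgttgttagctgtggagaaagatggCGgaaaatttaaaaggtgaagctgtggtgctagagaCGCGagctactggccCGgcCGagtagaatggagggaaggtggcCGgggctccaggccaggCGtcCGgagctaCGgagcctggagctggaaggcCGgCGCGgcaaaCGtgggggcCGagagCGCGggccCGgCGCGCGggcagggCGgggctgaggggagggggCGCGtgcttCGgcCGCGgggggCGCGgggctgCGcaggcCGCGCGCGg

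The Suv39h2 window held 33 CpG, more than 91.4% of the 32851 windows of all genes, whose median was 7. The windows of Suv39h1 held 15 and 37. The GC box GGGCGG, searched on both strands, was found 3 times in the Suv39h2 window and once in each Suv39h1 window, and 35.7% of all windows held it at least once. Among members not called, the Ehmt1 window also held 3, with 34 CpG. Of the windows of Ehmt2 and Cbx5, 1 held 4 and 1 held 3, and the remaining windows of the members held 0 to 2. The E box CACGTG and the E2F sequences TTTCCCGC and TTTGGCGC, searched on both strands, were not found in any of the 3, and stood in 7.15%, 1.07% and 0.514% of all windows. The CCAAT box CCAAT was found 2 times in the upstream Suv39h1 window and not in the others (37.4% of all windows), and the Zfp57 motif TGCCGC once in the downstream Suv39h1 window and not in the others (11.6% of all windows). The methylation of these windows is not analysed here.

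The level of Suv39h2 was 6.50, 8.20 and 6.79 FPKM in MG15, MG16 and MG17, and 13.3 and 15.2 FPKM in MG18 and MG19. Both cKO libraries thus lay above all controls, as did 14.5% of all genes tested. The control mean was 7.16 ± 0.910 FPKM (SD, n = 3) and the cKO mean 14.2 ± 1.30 FPKM (SD, n = 2). On the log2 scale the increase was 0.99 (SE 0.19, 95% interval 0.56 to 1.41, adjusted p = 0.0408, limma). Split by sex, the values went from 8.20 to 15.2 FPKM in the females and from 6.50 and 6.79 to 13.3 FPKM in the males. A two-sided exact permutation test over libraries gave p = 0.1, the smallest that 3 against 2 allow. The adjusted p lay close to the threshold. It ranged from 0.0301 to 0.0978 over 10 other settings, passing in 6, and without any 1 library it lay between 0.0662 (without MG16) and 0.375 (without MG19), while the log2 fold change stayed between 0.89 and 1.09.

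Suv39h1 measured 15.5, 15.3 and 15.8 FPKM in controls, against 15.0 and 15.9 after deletion of Uhrf1. The 5 values are nearly equal, and the cKO values lie on either side of those of the controls (log2 fold change -0.01, SE 0.15, 95% interval -0.35 to 0.34, adjusted p = 0.991). The antisense gene Gm14820 shares 17.5% of the 100-base stretches of the longest Suv39h1 transcript, and whether strand was used in the counting is not given in the sources used here.

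In every cKO library the ratio between the paralogs was above that of every control, as was the ratio of Cbx5 to Cbx1. Since Suv39h1 was nearly equal in all libraries, the ratio of the paralogs restates the change of Suv39h2 and is not a separate result. The ratio of Suv39h2 to Suv39h1 was 0.418, 0.536 and 0.429 in the controls, against 0.886 and 0.952 in the cKO. The log2 ratio was higher by 0.99 in the cKO (two-sided exact permutation test p = 0.1, adjusted p = 0.3 over the 6 ratios examined). The summed level of the pair was 22.04 to 23.5 FPKM in controls, of which Suv39h2 made up 29.5% to 34.9%. In the cKO cortices the sums were 28.4 and 31.1 FPKM, with shares of 47.0% and 48.8%. Within each of the 5 libraries the level of Suv39h1 lay above that of Suv39h2. Across libraries the values of the paralogs did not overlap among the controls, and among the cKO the higher value of Suv39h2 (15.2 FPKM) lay above the lower value of Suv39h1 (15.0 FPKM).

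**Figure D2:**
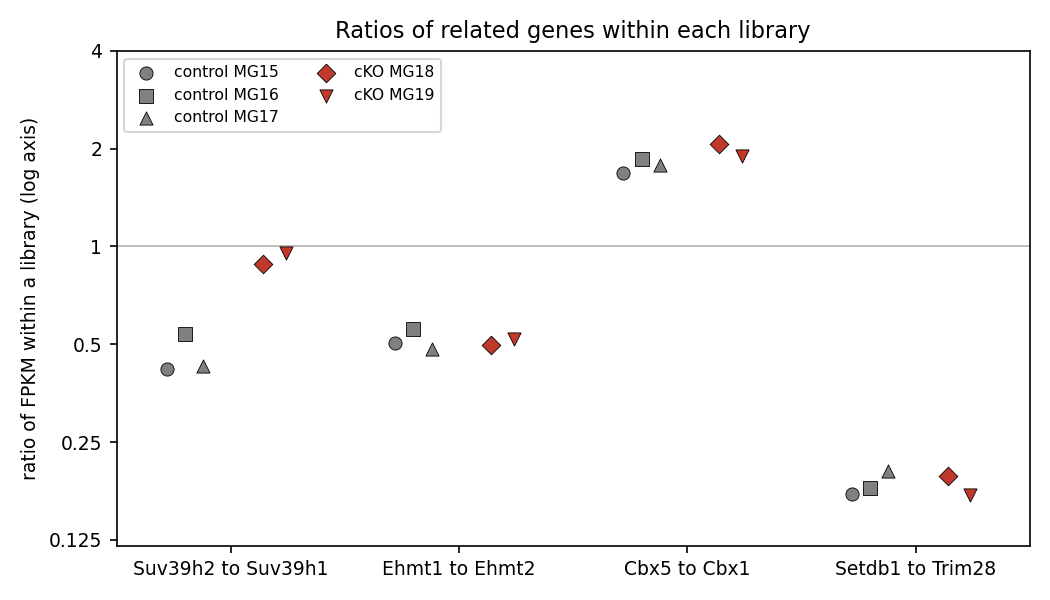
Ratio of the FPKM of 2 related genes within each library (vertical log axis) for 4 of the 6 gene pairs (horizontal axis), controls in grey and cKO in red. Suv39h2 to Suv39h1 lies at 0.418 to 0.536 in the controls and at 0.886 and 0.952 in the cKO, while the ratios of Ehmt1 to Ehmt2 and of Setdb1 to Trim28 overlap between the groups.

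None of the genes next to Suv39h2 that were tested was called. The antisense gene Gm13184, which lies within Suv39h2 on the opposite strand, is absent from the expression table and was not tested. Dclre1c, a nuclease of double-strand break repair that lies on the opposite strand and overlaps the 3′ end of Suv39h2, measured 3.24, 4.26 and 3.44 FPKM in controls, against 3.65 and 4.48 after deletion of Uhrf1 (log2 fold change 0.16, 95% interval -0.37 to 0.68, adjusted p = 0.815). It shares 1.96% of the 100-base stretches of the longest Suv39h2 transcript. Hspa14, a ribosome-associated chaperone, measured 37.58, 36.59 and 35.99 FPKM in the controls, with both cKO values, 29.9 and 35.4 FPKM, below them (log2 change -0.17, 95% interval -0.52 to 0.17, adjusted p = 0.673). Cdnf lay at 0.208 to 0.422 FPKM in the controls, with both cKO values, 0.109 and 0.190 FPKM, below them (log2 fold change -0.65, adjusted p = 0.609, limma). Both cKO values lay below all controls in 16.3% of all genes tested. Meig1, a gene of spermatogenesis, is listed at 0 in MG16, MG17 and MG18 and reached at most 0.412 FPKM, in the control MG15.

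Levels of cell markers are given beside this result, and their part in it was not tested. Of 14 genes of cycling cells 12 had lower means in the cKO on the log2 scale, with a median log2 fold change of -0.33 and a summed FPKM of 310 to 457 in controls and 270 to 314 in the cKO. None of them passed an adjusted p under 0.05 (limma), and 1, lower in the cKO, passed an unadjusted p under 0.05. Of all genes tested 6.37% passed an unadjusted p under 0.05 upward and 5.17% downward. Of 11 markers of ventral progenitors and interneurons, all 11 had higher means, with a median of 0.63, a summed FPKM of 85.2 to 95.6 in controls and 101 to 172 in the cKO, and 0 past an adjusted p under 0.05 and 6 past an unadjusted one. Of 6 markers of astrocytes and oligodendrocytes 5 were higher in mean, with Gfap past the adjusted threshold (summed FPKM 11.6 to 19.1 and 23.7 to 33.3). Of 8 markers of apical progenitors 6 had lower means (median -0.35, summed FPKM 1438 to 2069 and 1126 to 1382). All 4 markers of intermediate progenitors had lower means (median -0.37, 144 to 190 and 120 to 122). In each of these lists 2 genes passed an unadjusted p under 0.05, all of them lower, and 0 passed an adjusted one (limma). Of 9 microglial markers 7 had higher means (median 0.49, summed FPKM 29.1 to 56.0 and 55.2 to 62.0). Of 7 endothelial markers 6 had higher means (median 0.40, 79.3 to 114 and 92.9 to 101). Of 7 erythroid markers 5 had lower means (median -0.47, 596 to 922 and 450 to 509). Among them Hba-a1 and Hba-a2 went in opposite directions, with log2 fold changes of 4.55 and -4.75. How reads were divided between them was not tested. At an unadjusted p under 0.05 (limma), 4 of the 6 markers of astrocytes and oligodendrocytes were higher and 0 lower. Of the microglial markers 3 were higher and 0 lower, and of the endothelial markers 1 was higher and 0 lower. Of the erythroid markers 1 was higher and 2 were lower. No marker was at 0 in every library.

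Setdb1, the methyltransferase that acts with Trim28, measured 27.8, 27.4 and 24.5 FPKM in controls, against 22.7 and 27.2 after deletion of Uhrf1. The lower cKO value lay below all controls and the other within their range (log2 fold change -0.09, SE 0.16, 95% interval -0.46 to 0.27, adjusted p = 0.841).

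Ehmt2 and Ehmt1 had their highest and lowest values in the same libraries. Ehmt2 measured 80.2, 70.1 and 55.4 FPKM in controls, against 63.0 and 68.1 after deletion of Uhrf1 (log2 fold change -0.05, 95% interval -0.46 to 0.37, adjusted p = 0.935). Ehmt1 measured 40.6, 39.0 and 26.8 FPKM in controls, against 31.2 and 35.3 after deletion of Uhrf1 (log2 fold change -0.07, 95% interval -0.53 to 0.39, adjusted p = 0.911). For both genes the control MG17 was the lowest library and the control MG15 the highest, so that the controls spread more widely than the cKO. The ratio of Ehmt1 to Ehmt2 was 0.484 to 0.556 in controls, and 0.496 and 0.518 in the cKO (two-sided exact permutation test p = 0.9).

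Trim28, the scaffold that KRAB zinc finger proteins recruit, was the highest of the 10 genes by its mean in both groups. It measured 160.5, 151 and 121 FPKM in controls, against 116 and 158 after deletion of Uhrf1, so that the 2 cKO libraries differed from each other by about as much as the controls did (log2 fold change -0.08, SE 0.20, 95% interval -0.53 to 0.37, adjusted p = 0.897). The ratio of Setdb1 to Trim28 was 0.173 to 0.203 in controls, and 0.196 and 0.172 in the cKO (two-sided exact permutation test p = 0.9).

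Zfp57, which binds methylated DNA at imprinting control regions, measured 82.8, 79.3 and 68.3 FPKM in controls, against 76.6 and 71.1 after deletion of Uhrf1. Both cKO values lay within the range of the controls (log2 fold change -0.05, SE 0.16, 95% interval -0.41 to 0.30, adjusted p = 0.916). Its mean was above that of 93.4% of the genes tested in controls and of 93.8% in the cKO. The 3 start windows of Zfp57 held 4, 6 and 9 CpG, close to the median of 7 over all windows. Those of the other members held 8 to 40, the lowest of them in 1 of the 2 windows of Cbx5.

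Among the HP1 genes Cbx5 measured 119, 121 and 112 FPKM in controls, against 118 and 115 after deletion of Uhrf1, within the range of the controls (log2 fold change -0.01, 95% interval -0.35 to 0.33, adjusted p = 0.985). Cbx1 measured 70.5, 65.5 and 62.9 FPKM in controls, against 57.3 and 60.6 after deletion of Uhrf1. Both cKO libraries lay below all controls, as did 16.3% of all genes tested, and the difference did not pass the test (log2 fold change -0.17, SE 0.15, 95% interval -0.50 to 0.16, adjusted p = 0.675). The ratio of Cbx5 to Cbx1 was 1.69, 1.85 and 1.78 in controls and 2.06 and 1.90 in the cKO, without overlap (log2 ratio higher by 0.16, two-sided exact permutation test p = 0.1, adjusted p = 0.3 over the 6 ratios).

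Cbx3 measured 1.61, 2.22 and 3.27 FPKM in controls, against 1.48 and 2.20 after deletion of Uhrf1, with overlapping groups and the widest interval of the 10 genes (log2 fold change -0.32, SE 0.34, 95% interval -1.08 to 0.45, adjusted p = 0.740). These values are uncertain. Of the 100-base stretches of its longest transcript 23.9% occur unchanged in transcripts of 8 other genes, 6 of them processed pseudogenes of Cbx3, and by the methods text reads that mapped to several places were removed, although the filter flags printed beside that text would read the other way. Whether such a removal lowered the values was not tested. The ratios of Cbx3 to Cbx1 and to Cbx5 were computed and count among the 6 ratios of the adjustment, but for this reason their values are not given here.

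**Figure D3:**
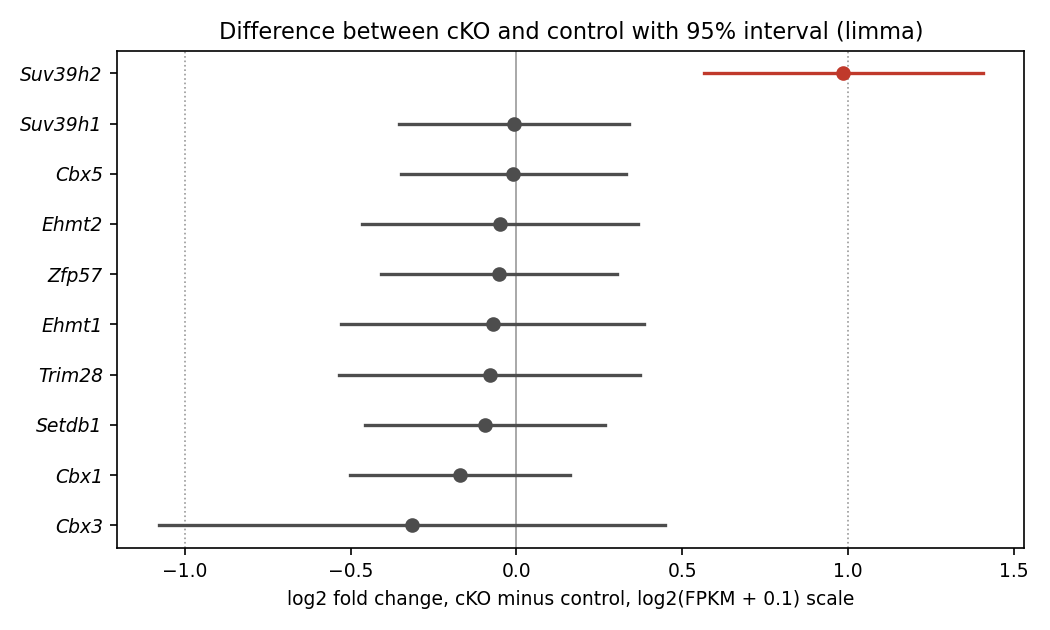
Log2 fold change of each gene, as cKO minus control, computed from log2(FPKM + 0.1) (horizontal axis), with its 95% interval from limma, red where the adjusted p is under 0.05. The interval of Suv39h2 (0.56 to 1.41) lies above 0 and those of the other 9 genes cross it. Dotted lines mark 2-fold.

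In order of mean FPKM, which is per length, the controls ran from Trim28 at 144 ± 20.9 (SD, n = 3) over Cbx5 at 117 ± 4.798, Zfp57 at 76.8 ± 7.56, Ehmt2 at 68.5 ± 12.4, Cbx1 at 66.3 ± 3.88, Ehmt1 at 35.4 ± 7.52 and Setdb1 at 26.6 ± 1.78 to Suv39h1 at 15.6 ± 0.254 and Suv39h2 at 7.16 ± 0.910. Trim28 and Cbx5, Zfp57 and Ehmt2, Ehmt2 and Cbx1, and Ehmt1 and Setdb1 were neighbors whose values overlapped. The order was the same in the cKO, by means and by medians. There the values of Trim28 and Cbx5 and of Suv39h1 and Suv39h2 overlapped.

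Other genes of the same system were examined in the same test. Of 66 partners, opposing enzymes and related factors, 64 were tested, and 0 were called at an adjusted p under 0.05 (limma), where 1.26% of all genes were. At an unadjusted p under 0.05, 3 of the 64 were higher and 2 lower, against 6.37% and 5.17% of all genes tested, and the median log2 fold change of the 64 was 0.0063. An unadjusted p under 0.05 with over 2-fold was reached by Mecom and Trim66, both higher and both with low values, against 2.88% of all genes upward. Mecom, a zinc finger protein with reported H3K9 methyltransferase activity, stood at 0.0697 FPKM in MG15, is listed at 0 in MG16 and MG17, and reached 0.227 and 0.325 FPKM after deletion (log2 fold change 1.64, SE 0.52, adjusted p = 0.270). Trim66, a testis-enriched relative of Trim28, measured 0.145, 0.160 and 0.202 FPKM in controls, against 0.528 and 0.417 after deletion of Uhrf1 (log2 fold change 1.09, SE 0.41, adjusted p = 0.363). For both the groups did not overlap, and values of this size rest on few fragments.

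Among the 11 partners of Setdb1 and genes of the HUSH complex, which spreads H3K9 methylation over silenced integrations, 10 were tested and the lowest p belonged to Mphosph8, the chromodomain subunit of HUSH. It measured 17.4, 18.4 and 17.3 FPKM in controls, against 14.8 and 12.6 after deletion of Uhrf1 (log2 fold change -0.38, adjusted p = 0.418). Morc3, an ATPase of chromatin compaction, followed with a log2 fold change of -0.29 (adjusted p = 0.481). Among the 5 partners of G9a and GLP, Zfp644 measured 72.1, 81.1 and 88.5 FPKM in controls, against 57.2 and 58.3 after deletion of Uhrf1 (log2 fold change -0.48, SE 0.16, adjusted p = 0.285), and Cdyl, a chromodomain corepressor, measured 4.75, 4.15 and 4.55 FPKM, against 6.09 and 6.23 (log2 fold change 0.45, adjusted p = 0.422). The cKO libraries lay on 1 side of the controls for these 4 genes, and none passed the adjusted threshold. For 8 of the 64 genes the cKO libraries lay above and for 8 below all controls, against 14.5% and 16.3% of all genes tested. The medians of the 7 lists that hold these genes ran from -0.092 for partners of HP1 to 0.36 for partners of G9a and GLP.

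In the other groups of the system the 2 genes of lowest p were as follows. Besides Mecom, the other methyltransferases were led by Prdm2 (log2 fold change 0.34, adjusted p = 0.554). Besides Trim66, the 14 relatives of Trim28 and subunits of the NuRD deacetylase complex were led by Rbbp7 (-0.27, adjusted p = 0.515). The 14 partners of HP1 and other heterochromatin factors were led by Adnp (0.32, adjusted p = 0.504) and Pogz (0.34, adjusted p = 0.520), and 10 of them had lower means. The 11 demethylases of H3K9 were led by Phf8 (0.29, adjusted p = 0.629) and Kdm4d (0.56, adjusted p = 0.650). Of 7 KRAB zinc finger genes with known targets 6 were tested, led by Zfp708 (-0.39, adjusted p = 0.487) and Zfp809 (0.30, adjusted p = 0.595), of which the latter binds retroviral sequences.

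**Figure D4:**
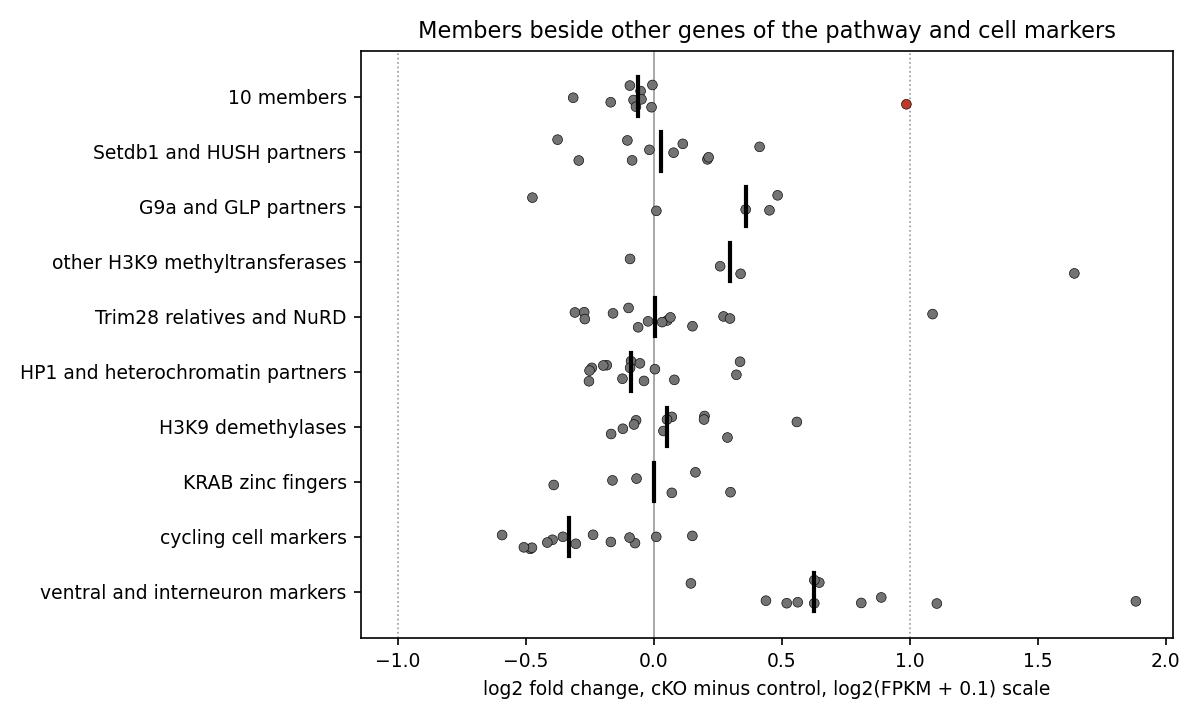
Log2 fold change, as cKO minus control, computed from log2(FPKM + 0.1) (horizontal axis), of each gene tested in the member set, in 7 lists of related genes and in 2 lists of cell markers (vertical axis), with black bars at the list medians and dotted lines at 2-fold. Red marks an adjusted p under 0.05, which in these lists Suv39h2 alone reached. The medians are -0.062 for the members, -0.33 for cycling cell markers and 0.63 for ventral and interneuron markers.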

How the data were processed

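Whole-cortex RNA of 3 control and 2 Uhrf1 cKO embryos at E16 was sequenced. The authors depleted ribosomal RNA, prepared strand-specific libraries, mapped 100-bp paired reads to mm10 with TopHat2, by their text removed multiply mapped, duplicated and poorly aligned reads (the samtools flags they print read the other way, and the text was followed here), and deposited FPKM per gene and library from Cuffdiff and cummeRbund. For tool versions and gene annotation the sources used here state nothing. Counts were not used here.

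Log2(FPKM + 0.1) was fitted with limma 3.58.1 (R 4.3.3; eBayes, variance trend, prior df 6.23, no covariate) for genes averaging 0.1 FPKM or more, and p was adjusted after Benjamini and Hochberg over all 14698 genes. Names of small RNAs (57 reaching that mean) were left out, since they took a large share of the summed FPKM of a library. This share was 64.6% to 87.4% in controls, and lower in both cKO libraries, at 39.2% and 56.0%. Ratios and single genes were compared by exact permutation over libraries. The depth is known only roughly, from steps between low values (62.6% to 81.2% of which fell near whole fragments), and counting intervals are not given.

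Positions, overlaps and shared 100-base stretches came from GENCODE vM21 (GRCm38, the build of mm10) and start windows from RefSeq (GRCm38.p6). All 10 members matched by symbol. Members, lists, thresholds and alternatives were chosen with earlier results of these data known. Genes named from a list are those past an adjusted p under 0.05, or otherwise the 2 of lowest p. Neighbors of Suv39h2, Gm14820 and Gfap were named after their values were seen. Alternatives changed the pseudocount, filter, scaling, variance prior and sex covariate and left out each library. One further list of related genes is not reported here.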

Additional observations from a re-analysis of the deposited data

How the results depend on the processing

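The log2 fold change of Suv39h2 was positive in all 15 alternatives. Its adjusted p was 0.0978 without the trend in the variance prior (log2 fold change 0.99), 0.0694 with no filter on low values (0.99), 0.0557 with a pseudocount of 0.01 (0.995) and 0.0562 with sex as a covariate (0.94), so that the count of members higher was 0 in these 4. Leaving out 1 library, the log2 fold change lay between 0.89 and 1.09 and the count was 0 each time, while the count with an unadjusted p under 0.05 and over 2-fold was 0 to 1, with Suv39h2 passing without MG18 or MG16. With 1 cKO library left, its spread is assumed to equal that of the controls. Uhrf1 lay between -2.25 and -1.82 and lost its call without MG18 or MG19.

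The other 9 members were not called in any alternative, and 7 of them changed sign in at least 1, whereas Cbx1 and Cbx3 stayed negative in all 15. With quantile normalization they were 0.061 for Trim28, 0.061 for Zfp57, 0.016 for Suv39h1, 0.0044 for Ehmt1, 0.062 for Ehmt2 and 0.13 for Cbx5. Leaving out 1 library they ranged from -0.30 to 0.14 for Trim28, -0.13 to 0.0041 for Zfp57, -0.22 to 0.036 for Setdb1, -0.047 to 0.035 for Suv39h1, -0.26 to 0.038 for Ehmt1, -0.19 to 0.072 for Ehmt2 and -0.043 to 0.014 for Cbx5.

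Raising the filter to 1 FPKM left 100 genes called higher and 13 called lower, in place of 161 and 24. Leaving out 1 library gave 34 to 133 and 2 to 20. Of the 64 other H3K9 and heterochromatin genes, 0 were called at an adjusted p under 0.05 in any alternative, and an unadjusted p under 0.05 with over 2-fold was reached by 0 with that filter, 0 with a pseudocount of 1, 1 with quantile normalization and 0 to 2 without 1 library. No paired analysis was possible because the labels carry no replicate numbers, and those used here only name the libraries. The library titles end in numbers whose meaning is not stated. By these numbers the control MG17 lies nearer to both cKO libraries than to MG15 and MG16, and their part in the results was not tested. In each alternative the median log2 fold change of all genes stayed between -0.044 and -0.0034. Without counts, the counting error of low values such as those of Cbx3, Mecom and Trim66 is not known.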
